A study of Mus musculus with 4 samples.

Results

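The genes described here are 9 regulators of the formative and primed epiblast, the states through which pluripotent cells pass on their way out of the naive state. They are Otx2, Pou3f1, Foxd3, Sall2, Etv4, Etv5, Pim2, Tead2 and Grhl2, taken by symbol from the 25209 genes that the count matrices of all 4 libraries list. They were measured by droplet scRNA-seq in embryoid bodies (EBs) at day 6. EBs are aggregates in which mouse embryonic stem cells (ESCs) differentiate, here formed from hanging drops in serum medium without the inhibitors and the cytokine that hold ESCs in self-renewal. The 2 WT and 2 LSD1 KO libraries are each 1 biological replicate, and the LSD1 KO cells are clones that carry a CRISPR deletion of the promoter and the first exon of Kdm1a, the gene of the histone demethylase LSD1. Both genotypes were grown in the same way with no further agent, and the study's methods name 2 independent clones for its RNA-seq, while for the single cells they give 2 biological replicates without naming clones. The comparison asks how loss of LSD1 bears on the levels of these regulators as EBs differentiate.

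Naive ESCs do not enter differentiation directly. They first lose naive factors and gain a formative state in which OTX2 and POU3F1, also known as OCT6, open and occupy new enhancers together with OCT4. FOXD3 and GRHL2 act at enhancers during the same passage, GRHL2 at epithelial genes, while ETV4 and ETV5 are ETS factors that respond to FGF and ERK signalling. TEAD2 is the DNA-binding partner of the coactivators YAP and TAZ, SALL2 is a zinc finger factor of the family that holds SALL4, and PIM2 is a serine/threonine kinase that promotes cell survival. Later in the embryo OTX2 also marks the anterior neural plate and the anterior streak, POU3F1 and SALL2 neural cells, and GRHL2 surface epithelia.

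The kept cells, with at least 500 UMIs (unique molecular identifiers, each counted once) and 500 genes, numbered 4393 and 6828 in WT replicates 1 and 2 and 5693 and 3045 in LSD1 KO replicates 1 and 2. Libraries held 72285943 to 75406512 UMIs, and the median per kept cell ran from 9211 in WT replicate 2 to 20304 in LSD1 KO replicate 2. Any 2 libraries shared 3 to 15 cell barcodes, at most 0.263% of the smaller. Kdm1a was at 217 and 229 CPM (counts per 1e6 UMIs of the kept cells) in WT and at 1.16 and 0.841 CPM in LSD1 KO, and the 3′ tags lie outside the deleted part. Levels below are plain CPM, while fold changes come from edgeR with TMM scaling. With library totals in place of TMM the median log2 fold change of all genes in whole EBs shifted to 0.13, and the calls moved from 3840 higher and 3660 lower to 4841 higher and 2583 lower.

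Promoter sequence could be read for 6 of the 9 regulators, and those of 3 that rose in LSD1 KO EBs are shown to place them beside their values. The sequences are RefSeq's, 250 bases before to 50 bases after a transcript start, and each matched 1 place in the mm9 genome. Capitals mark every match, on either strand, to 6 motifs: the octamer ATGCAAAT bound by POU factors, the OTX core TAATCC, the ETS core CCGGAA, the TEAD core GGAATG, the box CCAAT and the E-box CACGTG. The motifs were chosen after the Pim2 sequence had been seen.
Pim2, chrX:7455182-7455481, plus strand: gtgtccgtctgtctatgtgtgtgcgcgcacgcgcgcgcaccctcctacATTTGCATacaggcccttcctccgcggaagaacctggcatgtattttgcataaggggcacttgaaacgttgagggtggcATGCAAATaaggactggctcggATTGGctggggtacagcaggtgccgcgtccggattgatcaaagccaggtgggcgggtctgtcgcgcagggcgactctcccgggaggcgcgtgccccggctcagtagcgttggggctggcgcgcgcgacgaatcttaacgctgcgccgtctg
Foxd3, chr4:99322740-99323039, plus strand: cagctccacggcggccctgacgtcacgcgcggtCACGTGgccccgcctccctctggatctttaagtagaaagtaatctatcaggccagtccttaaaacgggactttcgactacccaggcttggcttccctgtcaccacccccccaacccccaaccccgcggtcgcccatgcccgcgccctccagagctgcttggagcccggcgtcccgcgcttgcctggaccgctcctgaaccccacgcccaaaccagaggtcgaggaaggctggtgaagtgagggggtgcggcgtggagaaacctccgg
Etv5, chr16:22439594-22439893, minus strand: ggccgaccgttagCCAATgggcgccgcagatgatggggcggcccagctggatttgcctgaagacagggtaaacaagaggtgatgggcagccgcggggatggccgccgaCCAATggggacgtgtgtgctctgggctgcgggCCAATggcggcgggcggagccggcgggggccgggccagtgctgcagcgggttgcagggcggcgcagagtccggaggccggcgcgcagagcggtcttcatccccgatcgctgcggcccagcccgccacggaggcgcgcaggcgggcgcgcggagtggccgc
The Pim2 sequence held 2 octamers, 1 on each strand, starting 202 and 123 bases before the transcript start, and 1 CCAAT box. Of the 32851 RefSeq promoters of this length 1.74% held an octamer and 0.103% held 2 or more. The Foxd3 sequence held 1 CACGTG, found in 7.15% of promoters, and the Etv5 sequence held 3 CCAAT boxes, found at least once in 37.4% of promoters. The other 8 sequences of the 6 genes, 4 of them for Otx2, held no octamer, ETS core or TEAD core, and 1 of the Otx2 sequences held an OTX core. These are matches of letters and were not tested for binding.

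In whole EBs, 6 of the 9 regulators were higher in LSD1 KO than in WT by edgeR's quasi-likelihood test at an adjusted p of 0.05, 1 was lower and 2 did not pass. Of all 16955 genes tested, 22.6% were called higher and 21.6% lower. The median log2 fold change of the 9 genes was 1.39, against −0.000595 over all genes. Pim2, Pou3f1, Foxd3, Etv4, Etv5 and Sall2 rose, Grhl2 fell, and Otx2 and Tead2 did not pass. In such sums fewer cells of a type and less RNA per cell cannot be told apart.

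**Figure D1:**
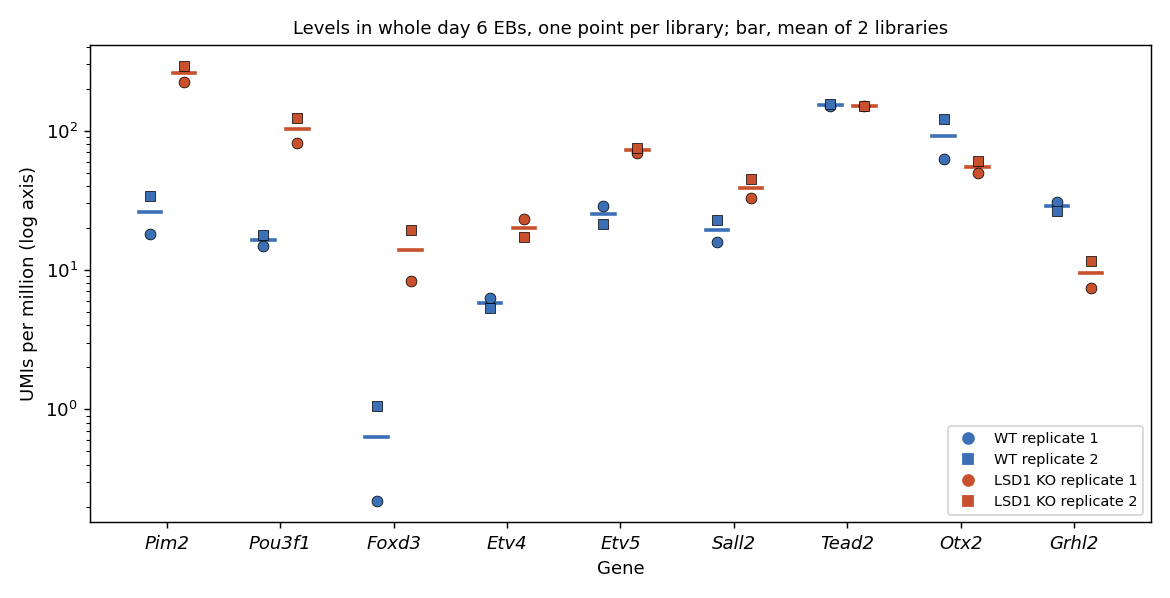
Levels of the 9 regulators in whole EBs in CPM on a log axis, with 1 point per library (blue, WT; red, LSD1 KO; circle, replicate 1; square, replicate 2) and a bar at the mean of the 2 libraries. The libraries of the genotypes overlap for Tead2 alone, and how many of all genes lack overlap in these levels was not counted. Otx2, which did not pass, is at 121 CPM in WT replicate 2 against 49.9 to 62.2 CPM in the other libraries.

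Pim2, on chromosome X of mm9 from 7455388 to 7460558 on the plus strand, had the highest LSD1 KO levels relative to WT after Foxd3. It was at 17.96 and 33.8 CPM in the WT libraries and at 225 and 289 CPM in the LSD1 KO libraries. The lowest LSD1 KO library lay far above the highest WT library. The log2 fold change was 3.17 (standard error, SE, 0.35, edgeR adjusted p = 0.00219).

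Pou3f1 lies on chromosome 4 from 124334889 to 124337899 on the plus strand and encodes the POU factor OCT6. Its levels were 14.9 and 17.8 CPM in WT and 81.5 and 123 CPM in LSD1 KO, a log2 fold change of 2.51 (SE 0.24, edgeR adjusted p = 0.00143). The WT libraries lay close together and the LSD1 KO libraries differed by more, with no overlap. Foxd3, a forkhead factor on chromosome 4 from 99322990 to 99325362 on the plus strand, was close to undetected in WT, with 14 and 72 UMIs in all kept cells (0.221 and 1.05 CPM). The LSD1 KO libraries held 562 and 1222 UMIs (8.39 and 19.4 CPM), and the log2 fold change was 4.29 (SE 0.75, edgeR adjusted p = 0.00811). Foxd3 had the widest error of the 9 genes, since replicates differed by more than 2-fold in both genotypes. The mm9 annotation has an unnamed gene model on the same strand that overlaps Foxd3 and is not among the symbols counted here.

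Of the ETS factors, Etv4 (chromosome 11, 101631056 to 101646685, minus strand) was at 6.27 and 5.32 CPM in WT and at 23.1 and 17.2 CPM in LSD1 KO. Etv5 (chromosome 16, 22381382 to 22439792, minus strand) was at 28.9 and 21.3 CPM in WT and at 68.7 and 75.3 CPM in LSD1 KO. Neither gene overlapped between genotypes. The log2 fold changes were 1.67 for Etv4 (SE 0.18, edgeR adjusted p = 0.00198) and 1.39 for Etv5 (SE 0.14, edgeR adjusted p = 0.00181). Sall2 (chromosome 14, 52930847 to 52948437, minus strand) rose by less, from 15.8 and 22.9 CPM in WT to 32.7 and 44.6 CPM in LSD1 KO, a log2 fold change of 0.86 (SE 0.25, edgeR adjusted p = 0.0385). The Sall2 call rested on 2 of the libraries, since the adjusted p was 0.108 when either WT replicate 1 or LSD1 KO replicate 2 was left out.

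Grhl2, on chromosome 15 from 37162791 to 37293324 on the plus strand, encodes an epithelial grainyhead factor and was the only 1 of the 9 genes that was called lower. It was at 30.8 and 26.3 CPM in WT and at 7.42 and 11.5 CPM in LSD1 KO, and fell by 1.72 on the log2 scale (SE 0.23, edgeR adjusted p = 0.00366). Transcripts of unnamed gene models overlap Grhl2 on both strands, and 1 of them, Gm16136, is counted apart. Otx2 (chromosome 14, 49277354 to 49287319, minus strand) was at 62.2 and 121 CPM in WT and at 49.9 and 60.1 CPM in LSD1 KO. WT replicate 2 stood apart and the other 3 libraries lay close together, with no overlap between genotypes. The log2 fold change of −0.88 (standard error 0.33) had an adjusted p of 0.0794 from edgeR. Without WT replicate 1 it was −1.30 with an adjusted p of 0.00547, and without WT replicate 2 it was −0.27 with an adjusted p of 0.197. Tead2 (chromosome 7, 52471123 to 52489005, plus strand, overlapped on the other strand by Cd37) was at 149 and 155 CPM in WT and at 149 and 149 CPM in LSD1 KO, with a log2 fold change of −0.16 (SE 0.09, edgeR adjusted p = 0.198).

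The share of cells with a UMI of each regulator was compared at equal depth. After each cell was thinned to 2000 UMIs, WT EBs kept 3702 and 6406 cells and LSD1 KO EBs kept 4876 and 2469. A Pim2 UMI was then seen in 2.998% and 4.73% of WT cells and in 29.3% and 36.1% of LSD1 KO cells. For Pou3f1 the shares were 1.89% and 2.62% in WT and 12.4% and 18.4% in LSD1 KO, and for Etv5 they were 5.75% and 3.57% against 13.5% and 14.7%. Foxd3 was seen in 0% and 0.156% of WT cells and in 1.42% and 4.01% of LSD1 KO cells. In all, 6 of the 9 genes were seen in more LSD1 KO than WT cells with no overlap between genotypes, and Grhl2 in fewer, at 6.40% and 4.12% in WT and 2.05% and 2.92% in LSD1 KO. Of 15920 genes, 41.9% were higher and 23.7% lower by the same rule. With 2 libraries against 2, the exact permutation test (two-sided) cannot go below p = 0.33.

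Droplets hold free RNA, so the level of each gene was also read in barcodes with under 100 UMIs. In these Pim2 was at 19.4 and 27.3 CPM in the WT libraries and at 204 and 259 CPM in the LSD1 KO libraries, and Foxd3 was at 0.413 and 0.246 CPM in WT and at 5.36 and 16.8 CPM in LSD1 KO. The WT values of Foxd3 rest on 1 UMI in each library. Free RNA held Pim2 at close to the level of its library, and a low share of cells with a UMI need not be expression. In WT cells gated on cardiac markers a Pim2 UMI was seen in 0.758% and 1.32% of thinned cells, and a Pou3f1 UMI in 0.325% and 0.412%. Whether these shares are free RNA or low expression was not tested. These shares give no background for LSD1 KO, where free RNA held more of both genes (Pou3f1 at 52.2 and 76.5 CPM against 7.44 and 6.65 CPM in WT) and where every gate with enough cells held them. The lowest LSD1 KO shares were in the streak gate, at 18.9% and 23.1% for Pim2 and 5.97% and 9.23% for Pou3f1, and how much of these is free RNA was not tested. In LSD1 KO cells gated on streak markers Foxd3 was seen in 0.139% of 720 cells and 0 of 65 cells, which allows a share of up to 4.62%, against 2.33% and 5.02% in cells gated on ESC markers. Whether Foxd3 shares of this size come from expression or from free RNA was not tested.

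To compare like-marked cells, each cell was placed in the gate of the class of which it showed a UMI in at least 3 of 10 markers and in more markers than of any other class. None of the 9 regulators is a marker. The ESC markers were Pou5f1, Nanog, Tdgf1, Utf1, Dppa5a, Zfp42, L1td1, Dppa4, Fgf4 and Dppa2, the streak markers T, Mixl1, Mesp1, Eomes, Evx1, Tbx6, Lhx1, Fgf8, Wnt3 and Gsc, and the neuron markers Tubb3, Stmn2, Dcx, Elavl3, Nefm, Nefl, Gap43, Stmn3, Ina and Map2. Of 11 gates, WT EBs filled 8 with at least 30 cells in both libraries, and LSD1 KO EBs filled 3: ESC, primitive streak and neuron. The ESC marker gate held 44 and 282 cells in WT against 1636 and 1167 in LSD1 KO. The streak marker gate held 98 and 272 cells against 735 and 66, and the neuron marker gate 74 and 171 cells against 1411 and 709. Cells gated on cardiac markers numbered 941 and 1227 in WT and 0 and 0 in LSD1 KO, and cells gated on epithelial markers 574 and 757 in WT and 18 and 4 in LSD1 KO.

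The same gate did not hold the same cells in both genotypes. Summed over the 10 ESC markers, the level in streak-gated cells was 109 and 112 CPM in WT and 1076 and 1211 CPM in LSD1 KO, and in neuron-gated cells 171 and 214 CPM in WT and 895 and 981 CPM in LSD1 KO. In the ESC gate the summed level of the 10 naive and germ cell markers was 326 and 785 CPM in WT against 68.4 and 89.0 CPM in LSD1 KO. The LSD1 KO neuron gate had only 3 of 10 neuron markers raised 2-fold over other LSD1 KO cells and was led by Acta2, Tagln and Actc1, genes of contractile cells. Its 10 leading genes also held the neuron markers Stmn3, Nefm and Tubb3, and those of the WT neuron gate held 3 as well. At least 3 neuron markers were seen in 3571 of 5693 and 2002 of 3045 LSD1 KO cells, so cells outside the gate carried them too. The gate is therefore called here by its markers and not by a cell type. The part of these marker differences in the results below was not tested.

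Within WT EBs the regulators differed in where they were high. The order is given over the 8 gates with at least 30 cells in both WT libraries. It leaves out the neural progenitor gate with 29 and 97 cells, where Sall2 was at 58.2 and 90.4 CPM, Pou3f1 at 58.2 and 66.9 CPM, Pim2 at 111 and 76.0 CPM and Otx2 at 132 and 131 CPM. Otx2 was highest in streak-gated cells, at 114 and 237 CPM, and then in epithelial-gated cells at 103 and 158 CPM. These neighbours overlap, and Otx2 was lowest in endothelial-gated cells at 6.96 and 15.6 CPM. Pim2 stood at 242 and 150 CPM in the ESC gate and 118 and 238 CPM in the neuron gate, which overlap, and at 15.3 CPM or less in each of the other 6 gates. Of these 8, Pou3f1 was highest in the neuron gate (105 and 70.2 CPM), followed without overlap by the ESC gate (54.6 and 39.3 CPM), and stayed at 1.32 CPM or less in the endoderm gate.

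Foxd3 in WT was highest in the ESC gate, at 5.46 and 12.0 CPM (4 and 42 UMIs), with 0.617 and 1.86 CPM in the neuron gate and at most 0.488 CPM in the other 6 gates. Among the 8 gates Sall2 was highest in the neuron gate at 41.9 and 46.1 CPM, below its level in the neural progenitor gate, and then in the paraxial gate at 22.5 and 25.9 CPM, with no overlap between them. Etv5 was at 42.3 and 75.1 CPM in the ESC gate and 60.4 and 36.8 CPM in the endoderm gate, which overlap, and at 6.35 and 8.23 CPM in the paraxial gate. Etv4 was low in each of the 8 gates, between 2.79 and 12.6 CPM, and each gate overlapped the next in order.

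Grhl2 was highest in epithelial-gated WT cells at 58.9 and 56.7 CPM. It followed in the streak gate at 30.6 and 34.7 CPM and the endoderm gate at 30.6 and 31.4 CPM, which overlap each other but not the epithelial gate, and was lowest in the endothelial gate at 3.46 and 4.76 CPM. Tead2 varied least, from 98.6 CPM in an endothelial-gated sum to 204 CPM in a streak-gated sum. With at least 4 markers asked for, 8 of the 9 genes kept the gate of their highest mean, and that of Pim2 moved from the ESC to the neuron gate.

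**Figure D2:**
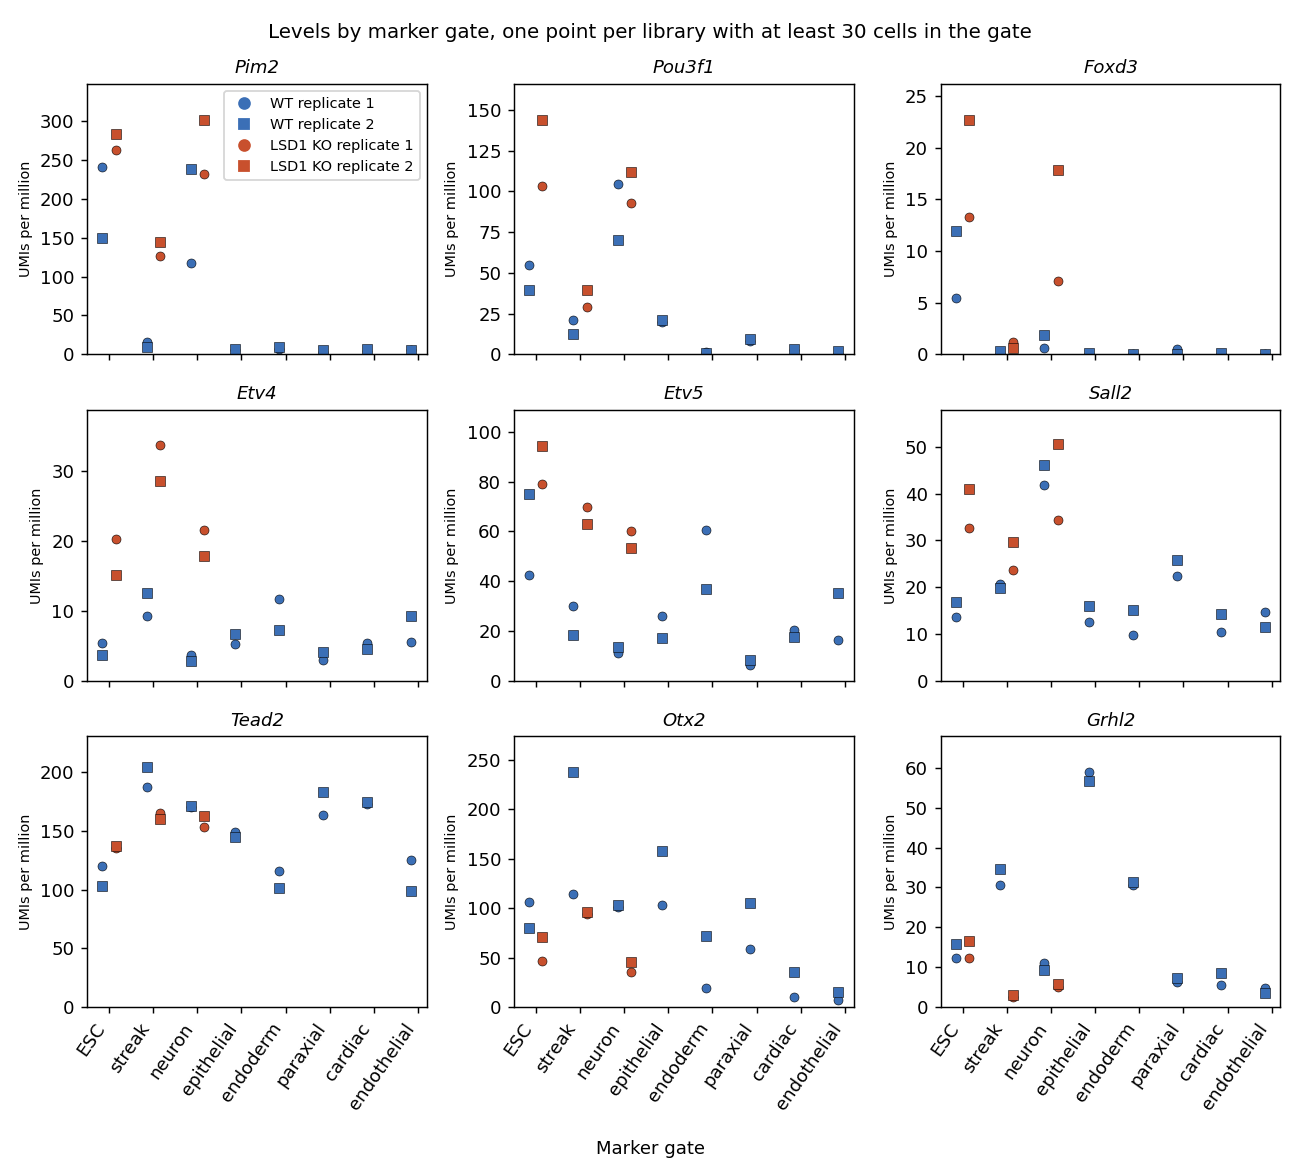
Level of each regulator in CPM (linear axis from 0) in 8 marker gates, with 1 point per library that had at least 30 cells in the gate (blue, WT; red, LSD1 KO). LSD1 KO points exist for the ESC, streak and neuron gates alone. In the streak gate Pim2 is at 127 and 145 CPM in LSD1 KO against 15.3 and 9.25 CPM in WT, and Grhl2 at 2.47 and 2.92 CPM against 30.6 and 34.7 CPM.

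In ESC-gated cells 3 of the 9 regulators were called higher in LSD1 KO and 0 lower (edgeR, adjusted p of 0.05), where 8.33% of 14318 genes were called higher and 7.03% lower. DESeq2 also called 3 higher and 0 lower, against 663 and 567 of the 14318 genes. At an unadjusted p under 0.05 from edgeR, 5 of the 9 were higher and 1, Otx2, was lower. Of the 14318 genes, 4533 had such a p in either direction. Pou3f1 rose from 54.6 and 39.3 CPM in WT to 103 and 144 CPM in LSD1 KO, a log2 fold change of 1.48 (SE 0.21, edgeR adjusted p = 0.00344). Sall2 rose from 13.6 and 16.8 CPM to 32.6 and 41.1 CPM, a log2 fold change of 1.16 (SE 0.22, edgeR adjusted p = 0.0109). Etv4 rose from 5.46 and 3.70 CPM, which are 4 and 13 UMIs, to 20.3 and 15.1 CPM, a log2 fold change of 2.08 (SE 0.34, edgeR adjusted p = 0.00589). None of the 3 overlapped between genotypes. WT replicate 1 gave only 44 cells to this gate, and with it as the only WT library the 3 calls were lost (adjusted p from 0.0749 to 0.140). With other classes ignored the adjusted p of Pou3f1 was 0.199.

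The 2 genes with the largest rise in whole EBs did not pass within the ESC gate. Pim2 was at 242 and 150 CPM in WT and at 263 and 283 CPM in LSD1 KO, a log2 fold change of 0.55 (SE 0.17, edgeR adjusted p = 0.0606), and Foxd3 was at 5.46 and 12.0 CPM against 13.3 and 22.7 CPM, a log2 fold change of 0.74 (SE 0.39, edgeR adjusted p = 0.237). The genotypes did not overlap in either gene, nor in Etv5, Tead2 and Otx2 of the same gate. How many of all genes lack overlap in this gate was not counted, so this lack of overlap is not read as a change. Etv5 (42.3 and 75.1 CPM against 78.9 and 94.5 CPM), Tead2 (120 and 104 CPM against 135 and 137 CPM), Otx2 (106 and 79.7 CPM against 46.7 and 71.1 CPM) and Grhl2 (12.3 and 15.9 CPM against 12.4 and 16.6 CPM) did not pass, with adjusted p from 0.0976 to 0.861.

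In streak-gated cells 4 of the 8 regulators tested were called higher and 3 lower, where 16.7% of 11206 genes were called higher and 15.8% lower. Foxd3 was too low to be tested there. Pim2 rose from 15.3 and 9.25 CPM (28 UMIs in each WT library) to 127 and 145 CPM, a log2 fold change of 3.36 (SE 0.19, edgeR adjusted p = 1.19e-08). Grhl2 fell from 30.6 and 34.7 CPM to 2.47 and 2.92 CPM (25 and 5 UMIs), which fell by 3.84 on the log2 scale (SE 0.29, edgeR adjusted p = 2.66e-07). Both gaps were wide against the spread of the replicates.

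Both ETS factors rose in streak-gated cells, Etv5 from 30.1 and 18.2 CPM to 69.8 and 63.0 CPM (log2 fold change 1.39, edgeR adjusted p = 5.44e-05) and Etv4 from 9.30 and 12.6 CPM to 33.7 and 28.6 CPM (log2 fold change 1.34, edgeR adjusted p = 0.000537). Otx2 fell from 114 and 237 CPM to 94.7 and 96.2 CPM, by 1.08 on the log2 scale (SE 0.24, edgeR adjusted p = 0.00272), a value that WT replicate 2 carried: without it Otx2 fell by 0.39 with an adjusted p of 0.0550, and DESeq2 gave an adjusted p of 0.186. Pou3f1 rose from 20.8 and 12.6 CPM to 28.8 and 39.7 CPM (log2 fold change 0.86, edgeR adjusted p = 0.0177), a call lost without WT replicate 2 (0.168), without LSD1 KO replicate 2 (0.0554) and in DESeq2 (0.0853). Tead2 fell by 0.42 (edgeR adjusted p = 0.0116), from 188 and 204 CPM to 165 and 160 CPM, and lost the call with library totals (adjusted p = 0.0812), where the median of all genes shifted to 0.16 and the calls went from 1872 higher and 1769 lower to 2667 and 1176. It was also lost on leaving out WT replicate 2 (0.0899) or LSD1 KO replicate 1 (0.0792). Sall2 was at 20.8 and 19.8 CPM in WT and 23.7 and 29.7 CPM in LSD1 KO and did not pass (adjusted p = 0.574).

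In neuron-gated cells 3 of the 9 were called higher and 1 lower, where 7.69% of 13988 genes were called higher and 6.02% lower. Etv5 rose from 11.1 and 13.5 CPM to 60.0 and 53.2 CPM (log2 fold change 2.12, standard error 0.19, edgeR adjusted p = 0.00132). Etv4 rose from 3.70 and 2.79 CPM, 6 UMIs in each library, to 21.6 and 17.8 CPM (log2 fold change 2.56, standard error 0.31, edgeR adjusted p = 0.00314). Foxd3 had 1 and 4 UMIs in WT against 153 and 360 in LSD1 KO, with an adjusted p of 0.0424 that rose to between 0.0663 and 0.209 without either WT library or LSD1 KO replicate 2. Otx2 fell from 101 and 103 CPM to 35.7 and 45.5 CPM, by 1.39 on the log2 scale (SE 0.15, edgeR adjusted p = 0.00207), and did not pass with other classes ignored (0.0722). Pou3f1 was at 105 and 70.2 CPM in WT and 92.8 and 112 CPM in LSD1 KO, and Pim2 at 118 and 238 CPM against 232 and 302 CPM. Those 2, Sall2, Tead2 and Grhl2 did not pass (adjusted p from 0.0656 to 0.746).

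**Figure D3:**
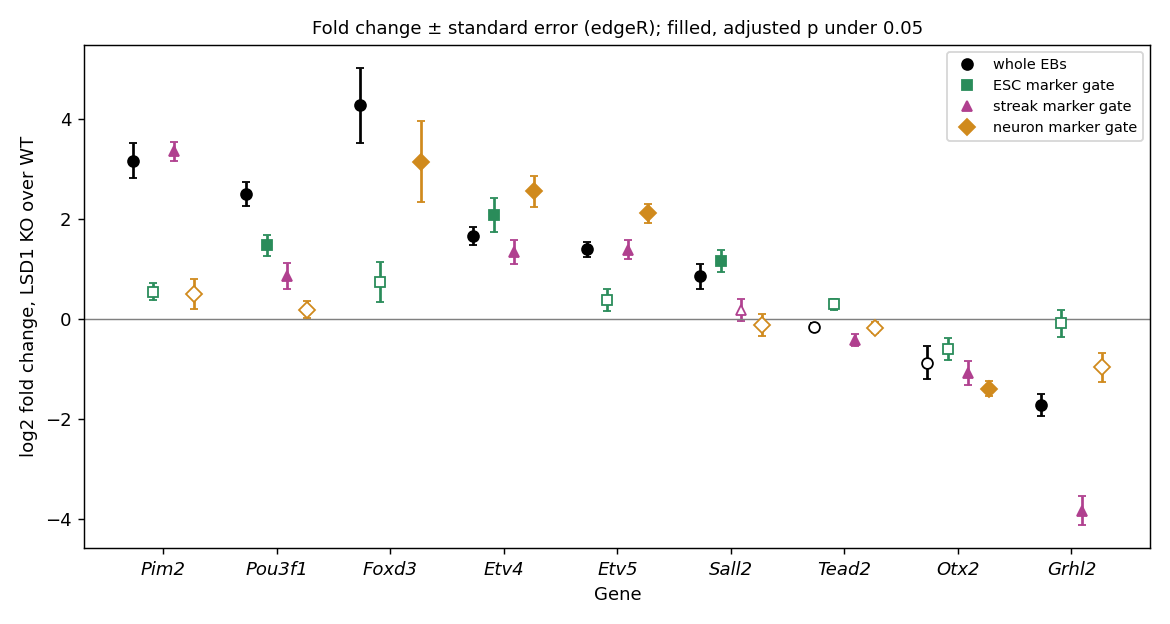
log2 fold change of LSD1 KO over WT with its standard error from edgeR for each regulator in whole EBs and in the ESC, streak and neuron marker gates, with filled symbols at an adjusted p under 0.05. Etv4 is above 0 and filled in all 4, Pim2 is at 3.17 in whole EBs and 3.36 in the streak gate but at 0.55 and 0.50 in the ESC and neuron gates, and Grhl2 runs from −0.09 in the ESC gate to −3.84 in the streak gate.

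Etv4 was thus called higher in whole EBs and in all 3 gates, Etv5 in whole EBs and 2 gates, and Pim2 in whole EBs and 1 gate. Whether an effect differed between gates was tested with an interaction term, a test added after the values had been seen. Between the streak and the ESC gate 5 of the 9 regulators differed, against 10.5% of 12468 genes, and between the neuron and the ESC gate 5 of the 9, against 2.56% of 14890 genes. Of those that passed, Pim2 and Grhl2 had the widest differences between the streak and the ESC gate, and Etv5 and Sall2 between the neuron and the ESC gate, where Foxd3 had a difference of 2.14 that did not pass (adjusted p = 0.111).

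The number of ESC markers in a cell gives a finer order than the gate. The markers were counted in cells thinned to 2000 UMIs. All UMIs of the cells with 0, 1, 2 and 3 or more of the 10 ESC markers seen were then summed per library, so deeper cells weigh more. Etv5 in WT replicate 2 was at 17.9, 21.0, 59.0 and 111 CPM over these 4 steps, and in LSD1 KO replicate 1 at 55.4, 62.7, 68.7 and 84.3 CPM. It was highest at 3 or more markers in all 4 libraries. Pim2 in WT replicate 2 was at 22.8, 127, 177 and 47.6 CPM, in LSD1 KO replicate 1 at 134, 204, 257 and 293 CPM, and in LSD1 KO replicate 2 at 168, 291, 328 and 307 CPM. Pou3f1 in WT replicate 2 was at 14.97, 41.6, 53.1 and 18.1 CPM, and in LSD1 KO replicate 1 at 67.9, 73.3, 83.8 and 103 CPM. In both WT libraries Pim2 and Pou3f1 were therefore lower at 3 or more markers than at 2, while in both LSD1 KO libraries Pou3f1 was highest at 3 or more. Pim2 was highest at 3 or more in LSD1 KO replicate 1 and at 2 in LSD1 KO replicate 2. The last step of WT replicate 1 held 18 cells, and the same turn is in WT replicate 2 with 155 cells.

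**Figure D4:**
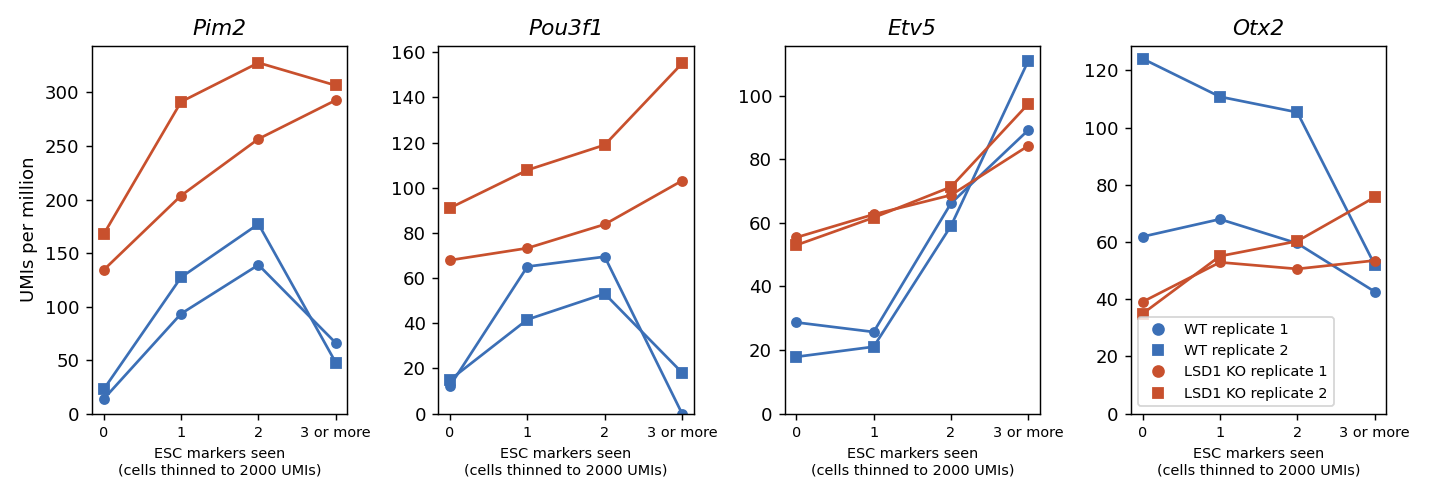
Level in CPM of Pim2, Pou3f1, Etv5 and Otx2 against the number of ESC markers seen in cells thinned to 2000 UMIs, with 1 line per library (blue, WT; red, LSD1 KO). Levels are from all UMIs of these cells. Pim2 and Pou3f1 drop at 3 or more markers in both WT libraries, Pim2 also goes from 328 to 307 CPM in LSD1 KO replicate 2, and Etv5 is highest at 3 or more in every library. From 0 to 3 or more markers Otx2 goes from 61.9 to 42.7 CPM in WT replicate 1 and from 124 to 52.1 CPM in WT replicate 2. In LSD1 KO it goes from 39.1 to 53.5 CPM in replicate 1 and from 34.9 to 75.6 CPM in replicate 2.

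Seen in the same thinned cells, pairs of the regulators were mostly found together about as often as independent detection gives. A ratio was given where at least 5 cells were expected to hold both genes. Of 36 pairs, 17 had a ratio in both WT libraries and 32 in both LSD1 KO libraries. The ratio was above 1 in both libraries for 9 pairs in WT and 18 in LSD1 KO, and below 1 in both for 3 and 6. Otx2 and Grhl2 had ratios of 2.07 and 1.37 in WT and 1.23 and 1.43 in LSD1 KO. Thinned to 5000 UMIs these were 1.93 and 1.51 in WT and 1.11 and 0.954 in LSD1 KO, so that the direction turned in LSD1 KO replicate 2. Pim2 and Grhl2 were below 1 in every library at both depths, at 2000 UMIs with 0.844 and 0.881 in WT and 0.818 and 0.923 in LSD1 KO. Pou3f1 and Pim2 stood at 3.27 in WT replicate 2 and at 1.18 and 1.14 in LSD1 KO, and in LSD1 KO cells of the ESC gate at 1.18 and 1.11. These ratios are descriptions, since cells of a library share their source.

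Across the 23 sums of a gate in a library with at least 30 cells, 17 of them WT, the levels of Pou3f1 and Pim2 were the closest of the 36 pairs (Pearson r of log2(CPM + 5) 0.89), followed by Pou3f1 and Sall2 (0.76), Foxd3 and Pim2 (0.75) and Etv4 and Etv5 (0.74). Tead2 and Etv5 were lowest at −0.48. Of 5418 genes compared, those most like Pim2 were Nfasc, L1td1, itself an ESC marker of the gate, and Dgkb (r from 0.96 to 0.97). Those most like Pou3f1 were Plekha1, Samd12 and Sema3e (0.95 to 0.96), and those most like Foxd3 were Platr10, Mkrn1 and Cyct (0.90 to 0.95). Grhl2 was most like Cldn6, Rab15 and Crb3 (0.90 to 0.92), of which Cldn6 is a tight junction gene and Crb3 a gene of apical polarity. For Etv4 they were Cyb5a, Epha2 and Mrpl35 (0.90 to 0.92), for Etv5 Shmt1, Blvrb and Cct8 (0.84 to 0.88), and for Sall2 Heatr6, Ptn and Phactr1 (0.86 to 0.87). Otx2 was most like Larp7, Ndufa7 and Cadm1 (0.82 to 0.85), and Tead2 most like Ptbp2, C530008M17Rik and Zfp326 (0.83 to 0.84). The sums share libraries and depth, so the correlations are descriptions.

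The family members of the regulators went in both directions. Of 16 family members 15 were tested in whole EBs, and 3 were called higher and 7 lower, against 22.6% and 21.6% of all 16955 genes. With library totals 4 were higher and 5 lower, and the median moved from −0.039 to 0.095. Etv1, the third factor of the Etv4 and Etv5 subfamily, rose with a log2 fold change of 2.01 (SE 0.18, edgeR adjusted p = 0.00122), and was also called higher in all 3 gates (1.24 in ESC-gated, 1.90 in streak-gated and 1.17 in neuron-gated cells). Sall3 rose by a log2 fold change of 1.95 and Pou3f3, at under 1 CPM in every library, by 2.09 (adjusted p = 0.00900 and 0.0464 from edgeR). Sall1 fell by 1.06 and Otx1 by 2.09, while Sall4 was at −0.04 and did not pass (adjusted p = 0.758). Tead4 fell by 2.81 (edgeR adjusted p = 0.000694), Tead1 by 0.64 and Tead3 by 0.51 (adjusted p = 0.0257 and 0.0445). Pim3 fell by 0.80 (adjusted p = 0.00385), Pim1 was at 0.31 (adjusted p = 0.133), and Grhl1 fell by 1.18 (adjusted p = 0.0223).

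Other genes of the same states were read from lists named for their role. For these lists, the shares of all genes called higher and lower were 22.6% and 21.6% in whole EBs and 8.33% and 7.03% in the ESC gate. They were 16.7% and 15.8% in the streak gate and 7.69% and 6.02% in the neuron gate. In the ESC gate 4533 of 14318 genes had an unadjusted p under 0.05 from edgeR in either direction, and DESeq2 called 663 higher and 567 lower. In the streak gate 4718 of 11206 genes had such a p, and DESeq2 called 985 higher and 954 lower. Of 19 other formative and primed genes, 10 were called higher in LSD1 KO whole EBs and 3 lower by edgeR, with a median log2 fold change of 0.87. Nodal, a ligand of the epiblast, rose by 4.11, Bcl11a by 4.01, Sox3 by 3.003 and Zic5 by 2.29 on the log2 scale (adjusted p from 0.000398 to 0.00485, edgeR). Zic5 was low throughout, at 0.418 and 0.596 TMM-scaled CPM in WT and 2.01 and 2.97 in LSD1 KO. In ESC-gated cells 9 of the 19 were called higher and 0 lower, with a median of 0.53, among them Nodal (1.96), Cdh2 (1.97), Bcl11a (1.25) and Dnmt3a (1.39). Without adjustment 9 of the 19 were higher and 2 lower at p under 0.05, and DESeq2 called 9 higher and 0 lower. Fgf5, a ligand that marks the formative and primed epiblast, had a log2 fold change of 1.24 in whole EBs and 0.42 in ESC-gated cells (edgeR adjusted p = 0.0101 and 0.241). The streak gate gave 8 higher and 3 lower of 17, and the neuron gate 6 and 1 of 18. Otx1 is in this list and among the family members.

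Of 18 naive genes 17 were tested in whole EBs, 3 were called higher and 3 lower, with a median of −0.29. Of all genes 22.6% were called higher and 21.6% lower. Nanog rose by 3.17 and Fgf4 by 2.60, while Tbx3 fell by 3.13 and Tfcp2l1 by 2.32 (adjusted p from 0.00274 to 0.0350, edgeR). Fgf4 was low in WT, at 0.402 and 2.02 TMM-scaled CPM against 4.86 and 9.91 in LSD1 KO. In ESC-gated cells 15 of 18 were called lower and 0 higher by edgeR, with a median of −2.34, and 0 were higher without adjustment or by DESeq2. Nanog, Zfp42 and Fgf4 are markers of the ESC gate, and Klf2, Esrrb, Tfcp2l1, Tbx3, Prdm14, Dppa3 and Tcl1 are markers of the naive gate. Most of this list thus took part in the gating, and its counts within a gate are not independent of it.

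Of 16 FGF and ERK output genes, read beside Etv4 and Etv5, 9 were called higher in whole EBs and 6 lower, with library totals 9 and 5, and the median was 0.59. Dusp6, the ERK phosphatase, rose by 1.68, Fosl1 by 2.69 and Ier3 by 1.69, while Phlda1 fell by 1.78 (adjusted p from 0.000990 to 0.00290, edgeR). Fosl1 was low throughout, at 0.723 and 0.691 TMM-scaled CPM in WT and 5.66 and 3.49 in LSD1 KO. In ESC-gated cells 6 were called higher and 0 lower, Dusp6 at 1.60 and Spry2, a feedback inhibitor of the pathway, at 1.31 among them, and with library totals 4. Without adjustment 6 were higher and 2 lower at p under 0.05, and DESeq2 called 4 higher and 0 lower. The streak gate gave 5 higher and 5 lower of 15, with library totals 5 and 2, and the neuron gate 7 and 2 of 16.

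Of 12 genes listed for YAP and TEAD output, read beside Tead2, 2 were called higher and 4 lower in whole EBs, with a median of −0.35. Of all genes 22.6% were called higher and 21.6% lower. The list also holds Yap1, Wwtr1, Vgll3 and Vgll4, which encode cofactors of TEAD factors, so it is not a list of outputs alone. Vgll3 fell by 2.03, Vgll4 by 1.42 and Lats2 by 0.89, and Ccn2 rose by 1.22 (adjusted p from 0.00370 to 0.0175, edgeR). In ESC-gated cells 0 of 11 passed in either direction by edgeR or DESeq2, and 0 were higher and 1 lower at an unadjusted p under 0.05.

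Of 16 epithelial genes of the kind that GRHL2 controls, 13 were called lower in whole EBs and 1 higher, with a median of −1.48. Rab25 fell by 5.32, Cldn7 by 4.58, Cldn6 by 3.46 and Krt18 by 2.58 on the log2 scale (adjusted p from 0.000411 to 0.00143, edgeR), and Ovol2 rose by 0.66. Cells gated on epithelial markers were nearly absent from LSD1 KO EBs, as given above, and Cldn4 and Cldn7 are markers of that gate. In streak-gated cells, where Grhl2 fell, 11 of 13 were called lower and 0 higher by edgeR and by DESeq2, with a median of −1.67 and 0 higher without adjustment. There the summed level of the 10 epithelial markers was 351 and 245 CPM in WT against 81.9 and 66.5 CPM in LSD1 KO. In ESC-gated cells, where Grhl2 did not pass, 9 of 14 were called lower and 1 higher, with Rab25 at −3.91 and Cldn7 at −3.28, and in neuron-gated cells 6 of 13 were called lower and 1 higher, with library totals 4 and 1.

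**Figure D5:**
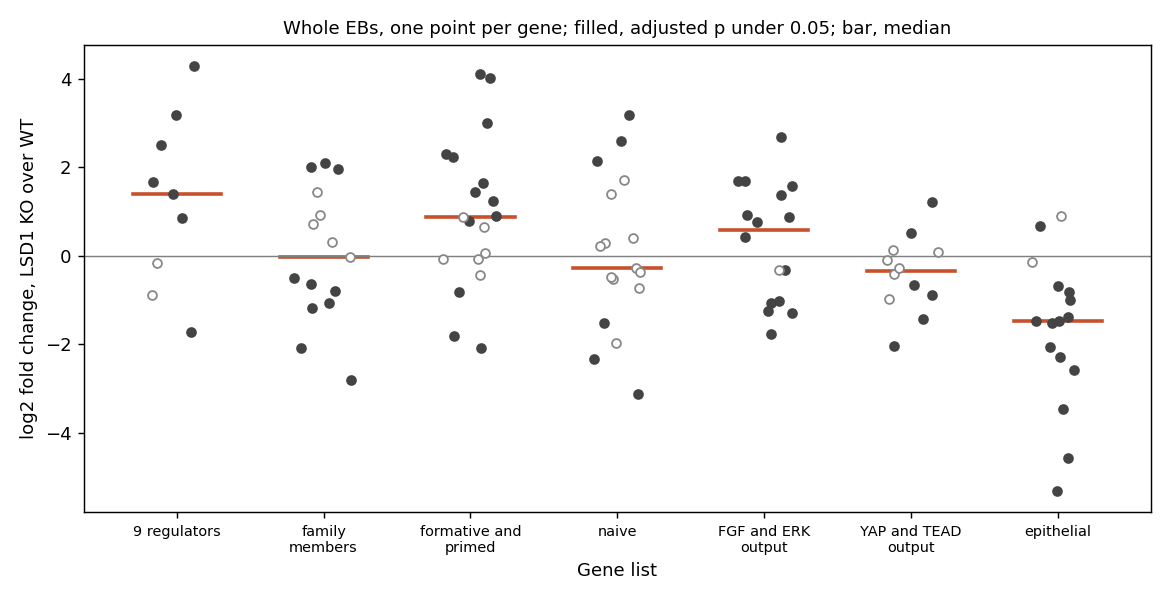
log2 fold change of LSD1 KO over WT in whole EBs for each gene of 7 lists, with filled points at an adjusted p under 0.05 from edgeR and a bar at the median. The 9 regulators have a median of 1.39, the other formative and primed genes 0.87, and the epithelial genes −1.48.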

How the data were processed

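Single cells of day 6 EBs were profiled by droplet scRNA-seq of transcript 3′ ends in 4 libraries, grouped by genotype from the labels. The authors counted UMIs with Cell Ranger 7.1.0 at default settings on mm9 (submitters' processing notes), and the deposited matrices hold raw UMI counts for every barcode, with symbols only. No doublets were removed. UMIs were summed per library over kept cells, or over a marker gate with at least 30 cells in every library, and tested with edgeR 4.0.16 in R 4.3.3 (filterByExpr, TMM, quasi-likelihood, Benjamini-Hochberg over all genes, threshold 0.05). DESeq2 1.42.0 was an alternative. The edgeR fit of whole EBs was tested on simulated data with known changes, while the gate, interaction and DESeq2 fits were not. Intervals and limits for 0 cover counting error only, and p-values measure the spread between libraries. The 9 genes, the gates and the lists were chosen with earlier results of these data known. Named genes were the 9 members, their family members, up to 4 genes per list with the largest change in whole EBs, and the 3 genes most like each member; further list genes were named after their values had been seen. Gene spans are GENCODE M1 on NCBIM37 (mm9), and promoters RefSeq's of GRCm38.p6, placed by exact match in mm9. Promoters of Pou3f1, Etv4 and Grhl2 were not used here. Alternatives changed the scaling, test, gene and cell filters, gates and thinning, left out each library in turn, removed the 5% of cells with the most UMIs, or took the replicate number into the fit as a block.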

Additional observations from a re-analysis of the deposited data

Results flagged for a closer look

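In an edgeR fit with an interaction term, which was added once the values were known, the log2 fold change of LSD1 KO over WT differed between marker gates for several of the regulators at an adjusted p of 0.05. The streak gate minus the ESC gate gave 2.86 for Pim2 (adjusted p = 1.04e-08) and −3.65 for Grhl2 (1.65e-06), and both held with each library left out in turn. It gave 1.08 for Etv5 (0.0206), −0.72 for Tead2 (0.00277) and −0.91 for Sall2 (0.0403). The Etv5 difference was 0.03 without WT replicate 2 and did not pass without LSD1 KO replicate 1 (0.147), that of Tead2 did not pass without WT replicate 2 (0.0958), and that of Sall2 did not pass when any 1 library was left out (0.0635 to 0.200) or with library totals (0.0751).

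The neuron gate minus the ESC gate gave −1.18 for Pou3f1 (adjusted p = 0.00165), which held with each library left out. It gave 1.66 for Etv5 (0.00757), −1.33 for Sall2 (0.00656), −0.78 for Otx2 (0.0293) and −0.48 for Tead2 (0.0483). Without WT replicate 2 these 4 did not pass (0.260, 0.0686, 0.314 and 0.381). That of Otx2 was also lost without LSD1 KO replicate 2 (0.247), and that of Tead2 without either LSD1 KO library (0.425 and 0.271) and with library totals (0.0620). The ESC gate, common to both comparisons, held 44 cells of WT replicate 1, and the ESC and naive markers of the gates differed between genotypes as given above. The part of these in the differences was not tested.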

How the results depend on the processing

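Of 428 values of single genes under the alternatives, 370 kept their direction and their side of the threshold, 22 came to pass it, 25 no longer did and 11 changed sign. For the differences between gates these were 68, 3, 16 and 3 of 90. In whole EBs the number of regulators called stayed within 1.5 times the main count in every alternative. In the ESC gate the 3 calls became 7 without a filter on low genes, 7 with the replicate number as a block and 5 with the gate set on thinned cells, and ran from 0 (without WT replicate 2) to 4 with a library left out. In the streak gate the 7 calls ran from 4 (without WT replicate 2) to 7. With a library left out, the 5 differences from the ESC gate ran from 2 to 5 for the streak gate and from 2 to 6 for the neuron gate. Regulators seen in fewer LSD1 KO cells went from 1 to 2 when thinned to 1000 UMIs, and from 1 to 3 with a library left out. Pairs above 1 in both WT libraries went from 9 of 17 with a ratio to 14 of 26 when thinned to 5000 UMIs.

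Gating on thinned cells gave −0.12 for Etv5 in the ESC gate, −0.12 for Sall2 in the streak gate and 0.13 for Sall2 in the neuron gate, and ignoring other classes gave 0.39 for Sall2 in the neuron gate. Grhl2 in the ESC gate was at 0.018 with the replicate block and at 0.040 without the 5% of cells with the most UMIs. With a library left out it ran from −0.30 to 0.31 (without WT replicate 2) and was at 0.15 without LSD1 KO replicate 1. In the neuron gate Pou3f1 ran from −0.037 (without WT replicate 2) to 0.44, and Sall2 from −0.42 to 0.13 (without LSD1 KO replicate 1), at 0.015 without WT replicate 2. Of the differences from the ESC gate, that of Otx2 (streak) ran from −0.90 to 0.54 and that of Pim2 (neuron) from −0.74 to 0.92. Both were lowest without WT replicate 1 and highest without WT replicate 2, so their sign turned on which WT library was kept. That of Pim2 was 0.04 without LSD1 KO replicate 1. The cause was not tested.

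Over all genes, calls moved by over 1.5 times as follows, higher and then lower. In whole EBs 2294 were lower without LSD1 KO replicate 2. The 1192 and 1007 of the ESC gate became 663 and 567 in DESeq2, 1989 higher with no filter, and with WT replicate 2 left out 437 and 342, with LSD1 KO replicate 1 left out 647 and 418 and with LSD1 KO replicate 2 left out 598 and 437. The 1872 and 1769 of the streak gate became 985 and 954 in DESeq2, 1234 and 1173 without LSD1 KO replicate 1 and 3190 and 2849 with other classes ignored. The 1075 and 842 of the neuron gate ran from 355 to 666 higher and from 272 to 397 lower with a library left out, and became 473 and 341 with at least 4 markers, 714 higher with the gate on thinned cells, and 1770 and 1571 with other classes ignored. Genes that differed between gates went from 1312 to 848 when WT replicate 2 and to 769 when LSD1 KO replicate 1 was left out (streak), and from 381 to 171 when LSD1 KO replicate 1 was left out (neuron).

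The labels number the replicates but name no shared batch, and replicate 1 minus replicate 2 correlated between genotypes at r = 0.19 over 16955 genes. With the block, Otx2 in whole EBs had an adjusted p of 0.0282 and Pim2 in the neuron gate one of 0.0258. Depth limits the WT values of Foxd3 and Etv4 in the gates, where sums hold few UMIs.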
